A study of Mus musculus with 12 samples.

Results

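The mouse Nxpe genes form a small family of 4 named protein-coding genes, Nxpe2, Nxpe3, Nxpe4 and Nxpe5, and they were followed here in the proximal colon of mice without the long noncoding RNA EPR. The members were taken by symbol from the count table, where they are 4 of 55376 genes, and all 4 of them were among the 15952 genes with enough counts to be tested. The family was put forward because of Nxpe2: it was chosen by the fall of the Nxpe2 counts in the same comparison of genotypes, so the changes of its members between genotypes are given as descriptions, without p-values.

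RNA was sequenced from 12 mice, all 12 weeks old, of which 6 were EPR fl/fl and 6 were EPR cKO, and each animal gave 1 library. All 12 mice carried the EPR allele with loxP sites around its promoter and exon 1, and the EPR fl/fl animals, which the labels also call wt, served as controls. The EPR cKO animals carried in addition the CDX2P-NLS Cre transgene, in which a human CDX2 promoter drives Cre in epithelial cells of the large intestine and the end of the ileum. Each library came from the whole frozen proximal part of the colon, so epithelium is mixed with muscle, nerves, immune cells and fat, and a smaller number of cells that express a gene cannot be told apart from less RNA per cell.

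NXPE proteins are named after a neurexophilin-like part and a PC-esterase domain. Neurexophilins are secreted proteins that bind neurexins at synapses, while PC-esterase domains occur in enzymes that add or remove acyl groups on sugars. A known mammalian example is CASD1, the Golgi enzyme that O-acetylates sialic acid, the charged sugar that ends many mucin glycans. In humans, NXPE1 and NXPE4 are known as genes expressed in the colon, and the mouse counterpart of NXPE1 is annotated as a pseudogene, Nxpe1-ps.

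Nxpe2, Nxpe4 and Nxpe1-ps lie next to each other on chromosome 9 in the mm10 build, whereas Nxpe3 is on chromosome 16 and Nxpe5 on chromosome 5. Nxpe2 (ENSMUSG00000032028.15, chr9:48318006-48340898, minus strand) has 6 exons with 3366 exon bases. It lies wholly within intron 2 of Nxpe4, which runs on the plus strand (ENSMUSG00000044229.9, chr9:48162023-48400025, 12 merged exons, 5512 exon bases). That intron is 121704 bases long, and the 2 genes share 0 exon bases. The arrangement holds for 2 of the 4 annotated Nxpe4 transcripts, which start far upstream and span Nxpe2. Another Nxpe4 transcript begins where RefSeq places the start of the gene, and from that start the 5′ ends of Nxpe2 and Nxpe4 point away from each other with 21142 bases between them. Nxpe1-ps begins 18295 bases beyond the end of Nxpe4. Nxpe3 (ENSMUSG00000075033.4) occupies chr16:55839953-55895285 on the minus strand, and Nxpe5 (ENSMUSG00000047592.17) occupies chr5:138225904-138253363 on the plus strand.

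The 250 bases upstream of the RefSeq starts of Nxpe2 and Nxpe4 are shown because these neighbours lie so close together and yet had very different values between the genotypes. Both sequences are from RefSeq for GRCm38.p6, the same build as mm10, and are written 5′ to 3′ on the strand of the gene, at chr9:48340899-48341148 (minus strand) for Nxpe2 and chr9:48361791-48362040 (plus strand) for Nxpe4. Capitals mark a 12-base unit present in 3 exact copies for Nxpe2, and a TATA box read on the opposite strand for Nxpe4.
Nxpe2: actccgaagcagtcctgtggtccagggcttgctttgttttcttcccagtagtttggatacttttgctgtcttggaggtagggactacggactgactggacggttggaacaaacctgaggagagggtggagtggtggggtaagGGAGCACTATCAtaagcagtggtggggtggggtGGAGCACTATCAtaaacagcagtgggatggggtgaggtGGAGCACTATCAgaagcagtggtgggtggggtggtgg
Nxpe4: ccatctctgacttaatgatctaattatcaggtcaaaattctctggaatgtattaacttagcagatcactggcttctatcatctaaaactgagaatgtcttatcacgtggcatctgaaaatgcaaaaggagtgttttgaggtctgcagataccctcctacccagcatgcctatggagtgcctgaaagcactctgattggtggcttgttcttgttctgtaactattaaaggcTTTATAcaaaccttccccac

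The Nxpe2 window holds the unit GGAGCACTATCA beginning 108, 75 and 37 bases before the start. An exact repeat of at least 12 bases in at least 3 copies is found in 0.977% of the 32851 windows of the same length in the RefSeq table, which includes simple repeats. Base composition differed between the neighbours, with 54.8% G and C for Nxpe2 and 40.8% for Nxpe4, beside a median of 52.4% over all windows. Of 5 motifs searched on both strands, a TATA box (TATAAA, in 12.4% of all windows), a GC box (GGGCGG, 32.7%), a CDX site (TTTATNG, 9.81%), a GATA site (AGATAA, 9.99%) and an HNF4 site (CAAAGTCC, 1.20%), no letters matched in the Nxpe2 window. The Nxpe4 window matched the TATA box only, 15 to 20 bases before its start and on the opposite strand. Of the 2 members elsewhere, the Nxpe3 window held 3 overlapping GC boxes with 69.2% G and C and 27 CpG dinucleotides, against a median of 6 per window, and the Nxpe5 window matched none of the motifs. A match of letters is a description and not a site of binding.

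Nxpe2 and Nxpe4 are also the closest pair in sequence. Their longest coding sequences, of 1677 and 1632 bases, were 68.6% identical over 1611 aligned bases, while the other 5 pairs of members were 59.1% to 60.2% identical. Little sequence was shared in stretches of 50 bases. Of these stretches, 0.0488% for Nxpe2 transcripts and 0.534% for Nxpe4 transcripts occurred in a transcript of any other gene. Nxpe2 shared 2 stretches with Nxpe4. For Nxpe3 the share was 0%. For Nxpe5 it was 2.71%, most often with its neighbour Gm454.

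The libraries held 13093904 to 33211041 counts, and values are counts scaled to library size (CPM, with TMM factors), given as mean ± SD with 6 libraries per group. EPR, listed under the symbol Smim31, went from 39.5 ± 14.5 CPM in EPR fl/fl to 0.132 ± 0.152 CPM in EPR cKO, with 297 to 1474 counts per control library against 0 to 10, so all labels matched the deletion. Markers of epithelium (12 of 12 genes) and of absorptive colonocytes (10 of 10) all passed the filter on low values. EPR cKO 1 stood apart with 8909 CPM summed over 8 smooth muscle markers, against at most 2581 CPM in the other EPR cKO libraries and 2947 to 5140 CPM in the controls.

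Nxpe2 fell to 4.90% of its control level in EPR cKO mice, the most negative log2 change of any tested gene after EPR itself. The EPR fl/fl libraries 1 to 6 held 21.6, 36.8, 42.9, 29.4, 22.9 and 19.7 CPM of Nxpe2. The EPR cKO libraries 1 to 6 held 0.881, 3.26, 1.40, 1.39, 0.811 and 0.745 CPM. The groups did not overlap, since the highest EPR cKO library, replicate 2, was still far below the lowest control, replicate 6.

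The means of Nxpe2 were 28.9 ± 9.30 CPM in controls and 1.42 ± 0.951 CPM without EPR (SD, n = 6 each), a log2 fold change of −4.34 with a standard error (SE) of 0.37. These values rest on 295 to 1353 counts per control library and 14 to 77 counts per EPR cKO library, so reads were assigned to Nxpe2 in every EPR cKO animal. The strand setting of the counting is unknown, and whether some of these reads came from the surrounding Nxpe4 intron was not tested. For the lowest, EPR cKO 6, the 14 counts give an exact Poisson 95% interval of 0.407 to 1.25 CPM, and for EPR cKO 2 the 77 counts give 2.58 to 4.08 CPM, where both intervals cover counting error only. Leaving out EPR cKO 2 gave a log2 fold change of −4.79. The log2 fold change was −4.35 among the 6 libraries with over 20000000 counts and −4.42 among the 6 with fewer.

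**Figure D1:**
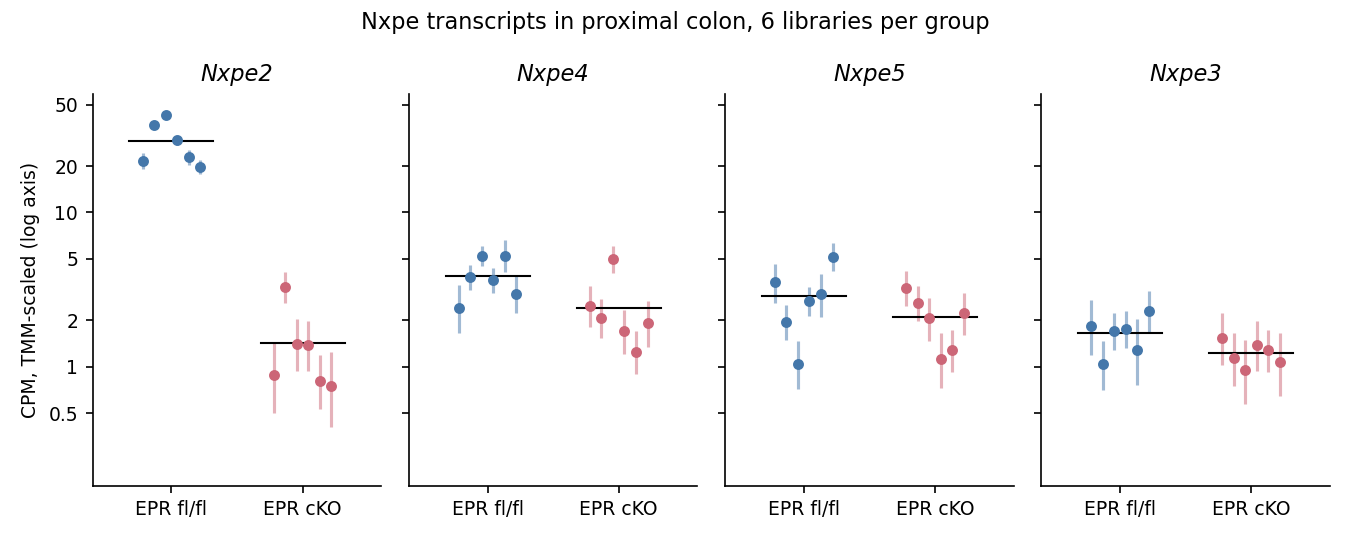
Level of each Nxpe gene in each library, in CPM on a logarithmic axis, for 6 EPR fl/fl (blue) and 6 EPR cKO (red) libraries in replicate order. Points carry exact Poisson 95% intervals of counting error and black lines mark group means: Nxpe2 separates the groups (19.7 to 42.9 against 0.745 to 3.26 CPM), while the points of Nxpe4, Nxpe5 and Nxpe3 overlap.

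Nxpe4, the gene whose longer transcripts span Nxpe2, was not called. It was present at 2.42, 3.80, 5.23, 3.64, 5.23 and 2.96 CPM in EPR fl/fl libraries 1 to 6, and at 2.48, 2.08, 4.96, 1.70, 1.25 and 1.92 CPM in EPR cKO libraries 1 to 6. The groups overlapped, although 4 of the 6 EPR cKO libraries lay below the lowest control. EPR cKO 3 was as high as the upper controls, and the other 5 were at or below 2.48 CPM. The means were 3.88 ± 1.16 and 2.40 ± 1.32 CPM (SD, n = 6 each), with a log2 fold change of −0.70 (SE 0.32), which was −1.05 without EPR cKO 3.

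The log2 fold change of Nxpe4 also differed between the 2 sets of libraries split at 20000000 counts. Among libraries with over 20000000 counts (3 per group), Nxpe4 was at 4.22 ± 0.875 CPM in controls and 1.67 ± 0.416 CPM in EPR cKO, a log2 fold change of −1.35. Among those with fewer counts it was at 3.54 ± 1.495 and 3.12 ± 1.62 CPM, a log2 fold change of −0.21, and EPR cKO 3 belongs to this set. In EPR cKO the cutoff fell between libraries of similar depth. EPR cKO 3 and EPR cKO 1 held 19748111 and 19645585 counts, and EPR cKO 4, in the deeper set, held 22160803. Neither set called Nxpe4 at an adjusted p under 0.05, and the part of depth in these values was not tested.

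Nxpe5, on chromosome 5, was not called either. Its levels were 3.51, 1.95, 1.05, 2.67, 2.94 and 5.16 CPM in EPR fl/fl libraries 1 to 6 and 3.25, 2.59, 2.05, 1.12, 1.28 and 2.24 CPM in EPR cKO libraries 1 to 6. The lowest of the 12 values was a control, and 0 of 6 EPR cKO libraries lay below it. The means were 2.88 ± 1.41 and 2.09 ± 0.802 CPM (SD, n = 6 each), a log2 fold change of −0.46 (SE 0.36). EPR fl/fl 6 held the highest value, and without it the log2 fold change was −0.21. It was −0.20 among the libraries with over 20000000 counts and −0.67 among those with fewer, the opposite order to that of Nxpe4.

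Nxpe3, on chromosome 16, had the lowest level per length of the 4 members in controls. EPR fl/fl libraries 1 to 6 held 1.83, 1.04, 1.71, 1.76, 1.29 and 2.31 CPM, and EPR cKO libraries 1 to 6 held 1.54, 1.14, 0.952, 1.39, 1.28 and 1.06 CPM. The values overlapped, with 1 EPR cKO library below the lowest control and 4 controls above the highest EPR cKO library. The means were 1.66 ± 0.445 and 1.23 ± 0.217 CPM (SD, n = 6 each), a log2 fold change of −0.43 (SE 0.21), and Nxpe3 was not called. With 18 to 54 counts per library, the precision of each value is low. The log2 fold change was −0.25 among the libraries with over 20000000 counts and −0.65 among those with fewer.

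Called here means an edgeR adjusted p under 0.05 over all 15952 tested genes. In these terms 1 of the 4 members was called lower, and that member is the one the family was chosen for, while 1.57% of all tested genes were called lower and 2.46% in either direction. All 6 EPR cKO libraries lay below all 6 controls for 1 of the 4 members and for 1.47% of all tested genes. All 4 log2 fold changes were below 0, as were those of 7522 of the 15952 tested genes, whose median was 0.02. The 4 include Nxpe2, for which the family was chosen, and the changes of the other members were not called.

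The weight of the family lay on Nxpe2 in control colon. Per kilobase of exon, which allows levels of different genes to be compared, Nxpe2 was at 8.58 ± 2.76 CPM, Nxpe5 at 0.713 ± 0.348, Nxpe4 at 0.704 ± 0.210 and Nxpe3 at 0.257 ± 0.0691 CPM per kb in EPR fl/fl (SD, n = 6). Nxpe2 was higher than Nxpe4 in 6 of 6 control libraries, by 3.57 ± 0.41 on the log2 scale with a prior count of 2 (SD). This is given without a test, since these counts entered the comparison by which Nxpe2 was chosen. Nxpe4 and Nxpe5 did not differ beyond their spread, with a mean log2 difference of 0.07 ± 1.09 and Nxpe4 higher in 3 of 6 libraries (two-sided exact sign-flip permutation p = 0.938), and their order turned without the prior. Nxpe5 was higher than Nxpe3 by 1.33 ± 0.68 on the log2 scale, in 6 of 6 libraries (exact permutation p = 0.0312, unadjusted). The pairs compared were neighbours in an order taken from these same libraries, so these p-values are not independent of the order. The value 0.0312 is the smallest that 6 libraries allow, and for Nxpe5 over Nxpe3 the p was 0.0625 without the prior and 0.0938 without the correction for length.

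In EPR cKO the levels per length came close together. Nxpe5 was at 0.517 ± 0.199, Nxpe4 at 0.435 ± 0.240, Nxpe2 at 0.420 ± 0.283 and Nxpe3 at 0.191 ± 0.0337 CPM per kb (SD, n = 6). The sum of the 4 members went from 10.3 ± 2.54 CPM per kb, with a range of 8.01 to 14.2, to 1.56 ± 0.470, with a range of 0.982 to 2.17. Nxpe2 made up 82.5 ± 6.53% of this sum in controls and 26.1 ± 11.3% in EPR cKO. The shares of the others were correspondingly larger in EPR cKO, at 33.2% for Nxpe5 (7.88% in controls), 27.3% for Nxpe4 (6.97%) and 13.4% for Nxpe3 (2.69%).

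**Figure D2:**
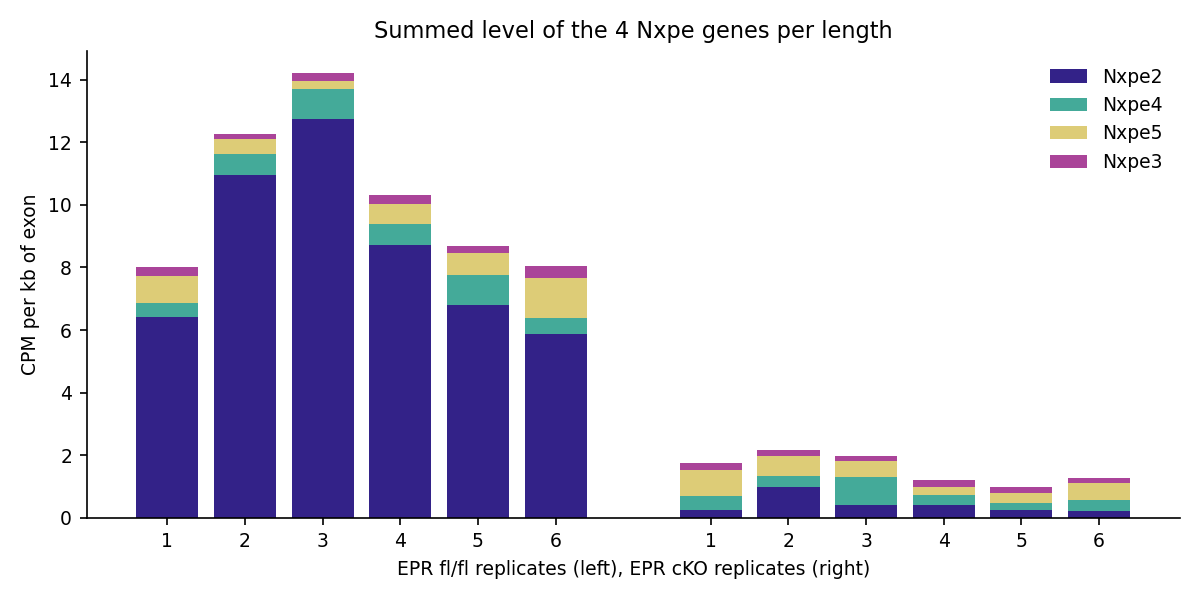
Summed level of the 4 Nxpe genes in each library, in CPM per kilobase of exon, stacked by gene. Control bars reach 8.01 to 14.2 and consist mostly of Nxpe2, and EPR cKO bars reach 0.982 to 2.17 and are shared among the members.

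The change of Nxpe2 was then set beside those of the cell type markers. The goblet cell list, with the mucin Muc2 and the trefoil peptide Tff3 among 13 genes, had 6 genes called lower and 0 called higher, and its summed level went from 19175 CPM (range 13741 to 28989) to 7733 CPM (6438 to 8874), or 40.3% of control. Without EPR cKO 1, 11 of its 13 genes were called lower, beside 2273 of all 15836 genes tested in that setting. No goblet marker was at 0 in any EPR cKO library, and the lowest value was 19.5 CPM, of Atoh1. In the epithelium list all 12 log2 fold changes were above 0, with 0 of 12 genes called by edgeR and 5 with an unadjusted p under 0.05. DESeq2 called 1 of these genes higher. Without EPR cKO 1, edgeR called 3 higher, beside 1178 of all genes tested in that setting. The epithelium sum was 13101 CPM in controls (10371 to 15259) and 16372 CPM in EPR cKO (12549 to 19021).

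The remaining cell type lists were summed in the same way. The adipocyte sum was at 36.6% of control, from 687 CPM (372 to 1140) to 252 CPM (57.3 to 747). The log2 fold changes of its 6 genes were all below 0 with a median of −1.47, beside −0.79 for the goblet list. Of these 6 genes 0 were called by edgeR, 1 by DESeq2 and 1 by limma-voom, while 6 had an unadjusted edgeR p under 0.05 and 6 were called lower without EPR cKO 1, which held the 747 CPM. The summed absorptive colonocyte markers were at 131% of control (11979 to 18736 against 17107 to 27934 CPM), with 0 of 10 called by edgeR, 1 called higher by DESeq2 and 1 by limma-voom, and 6 with an unadjusted p under 0.05. Of these 10 genes 7 had log2 fold changes above 0 and 3 below, and edgeR without EPR cKO 1 called 1 higher. The smooth muscle, enteric neuron and glia, endothelium and immune sums were at 71.4%, 76.1%, 77.7% and 96.3% of control, and 0 genes of these 4 lists were called by edgeR, DESeq2 or limma-voom or had an unadjusted edgeR p under 0.05. Without EPR cKO 1, edgeR called lower 8 of 8 smooth muscle, 6 of 8 neuron and glia, 3 of 6 endothelium and 1 of 10 immune markers. That setting called lower 2273 of all 15836 tested genes, the background for these counts and for the adipocyte list. The part of these cell types in the values of the Nxpe genes was not tested.

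Nxpe2 was also expressed relative to the goblet and epithelium lists. Per 1000 CPM of the summed goblet markers, Nxpe2 was at 1.53 CPM in controls (1.04 to 2.22) and 0.180 CPM in EPR cKO (0.101 to 0.401), or 11.8% of control, with 6 of 6 EPR cKO libraries below the lowest control. Per 1000 CPM of the epithelium markers it was at 3.90% of control. By the same measure Nxpe4, Nxpe5 and Nxpe3 were at 146%, 163% and 177% of control relative to the goblet list, and at 48.6%, 62.9% and 60.5% relative to the epithelium list. The direction for these 3 members therefore depends on the list used as the base. With libraries scaled to the epithelium list, which shifts the median of all genes to −0.30, the log2 fold changes were −4.69 for Nxpe2 and −1.05 for Nxpe4.

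The genes around Nxpe2 on chromosome 9 were examined next, to see whether they moved with it. Within 1 Mb of the span of the Nxpe genes, 10 other genes were tested. Of these 0 were called by edgeR, and 0 by DESeq2 or limma-voom, while 1, Nnmt, had an unadjusted edgeR p under 0.05. On the lower-coordinate side the only tested gene was Cadm1, a cell adhesion molecule, with a log2 fold change of −0.44 (SE 0.34). On the other side the nearest were Rexo2, an oligoribonuclease, at −0.02 (SE 0.15), Rbm7, a subunit of the nuclear exosome targeting complex, at 0.12 (SE 0.07), and Gm5617 at −0.03 (SE 0.17). Rexo2, the closest of them at 36.5 kb from the end of the span, was at 25.3 ± 3.38 and 25.03 ± 6.77 CPM.

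Further out, the most negative value belonged to Nnmt, nicotinamide N-methyltransferase, named here after its values were seen. It was at 6.49 ± 2.76 CPM in controls and 2.92 ± 2.27 CPM in EPR cKO, a log2 fold change of −1.15 (SE 0.47, edgeR adjusted p = 0.221). Without EPR cKO 1, the library with high smooth muscle markers, 3 of the 10 neighbours were called, namely Cadm1, Nnmt and Tmprss5. The same omission raised the number of genes called lower among all tested genes from 251 to 2273. Nxpe1-ps held 36 counts over all 12 libraries and was not tested.

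**Figure D3:**
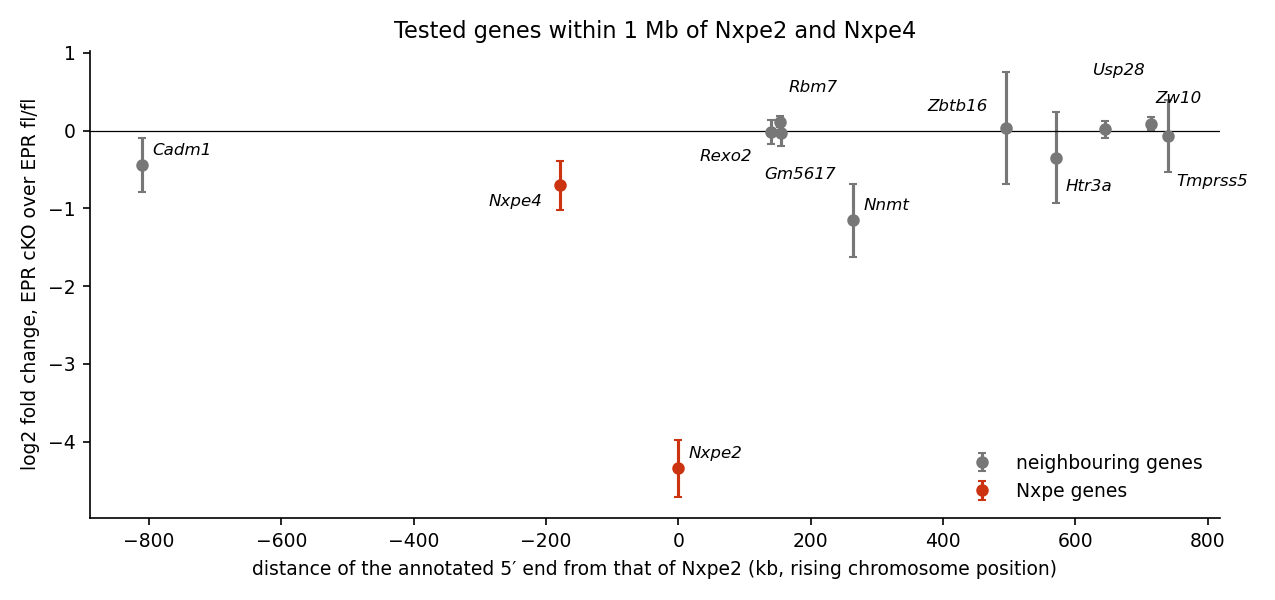
Log2 fold change (EPR cKO over EPR fl/fl) with SE of each tested gene within 1 Mb of the Nxpe genes on chromosome 9, by the distance in kb of its annotated 5′ end from that of Nxpe2. Nxpe2 lies at −4.34, Nxpe4 (plotted at the 5′ end of its longest transcript) at −0.70, and the 10 neighbours lie between −1.15 and 0.12.

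The genes next to the other members were at the following values. Nxpe3 lies 1.05 kb from Nfkbiz, an inducible nuclear IκB protein, with a log2 fold change of 0.06 (SE 0.15), and 4.60 kb from Cep97, a centrosomal protein, at −0.15 (SE 0.15). Nxpe5 lies between Gm454, at 1.11 ± 0.457 and 0.290 ± 0.465 CPM where the log2 difference was −2.0 (SE 0.78, edgeR adjusted p = 0.200), and Lamtor4, a subunit of the lysosomal Ragulator complex, at 0.28 (SE 0.08, edgeR adjusted p = 0.102). Of these 4, 0 were called by edgeR, Gm454 and Lamtor4 had an unadjusted p under 0.05, and Gm454 shares sequence with Nxpe5. DESeq2 called Lamtor4 higher, and edgeR without EPR cKO 1 called Gm454 lower and Lamtor4 higher.

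Genes related to the family by domain were also examined. Of 9 such genes 5 were tested, and 0 were called by edgeR, DESeq2 or limma-voom or had an unadjusted edgeR p under 0.05, with a median log2 fold change of −0.15 beside 0.02 for all genes. Casd1, the sialic acid O-acetyltransferase, was at 53.3 ± 5.22 and 48.1 ± 3.27 CPM (log2 fold change −0.15, SE 0.07). Cped1, which joins a cadherin-like part to a PC-esterase domain, was at 36.4 ± 5.17 and 26.03 ± 18.7 CPM (−0.49, SE 0.33). It was called without EPR cKO 1. Pced1a was at −0.11 (SE 0.12), Pced1b at −0.00 (SE 0.32), and the neurexophilin Nxph3 at −0.74 (SE 0.57). Nxph1, Nxph2 and Nxph4 did not pass the filter on low values.

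The next list held genes that make, move, modify and remove sialic acid. It left out the sialyltransferases, which attach sialic acid. The sialyltransferase St6gal1, outside the list, was called lower, and its values are given below. Of the 16 listed genes 13 were tested and 0 were called by edgeR, although 3 (Gne, Neu1 and Cmah) had an unadjusted p under 0.05. Of the 13, 10 had log2 fold changes below 0 and 3 above, and their median was −0.12. Gne, the enzyme that begins sialic acid synthesis, had the highest CPM of the list, at 240.2 ± 47.5 CPM in controls and 182 ± 40.01 CPM in EPR cKO, a log2 fold change of −0.40 (SE 0.16, edgeR adjusted p = 0.218). Neu1, the lysosomal sialidase, was at 230.0 ± 38.4 and 177 ± 15.8 CPM, a log2 fold change of −0.38 (SE 0.12, edgeR adjusted p = 0.112). Slc35a1, the Golgi transporter of CMP-sialic acid, and Cmas, which activates sialic acid, were at −0.12 (SE 0.13) and −0.00 (SE 0.10). Cmah, which hydroxylates sialic acid and was named after its values were seen, was at 94.4 ± 25.9 and 60.5 ± 18.1 CPM, a log2 fold change of −0.64 (SE 0.22, edgeR adjusted p = 0.147).

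A few settings changed these calls. DESeq2 called Neu1, as did edgeR without EPR fl/fl 2, and edgeR without EPR cKO 1 called Cmah, Neu1 and Neu3. Scaling to the epithelium list, and the libraries with over 20000000 counts alone, each called Cmah.

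**Figure D4:**
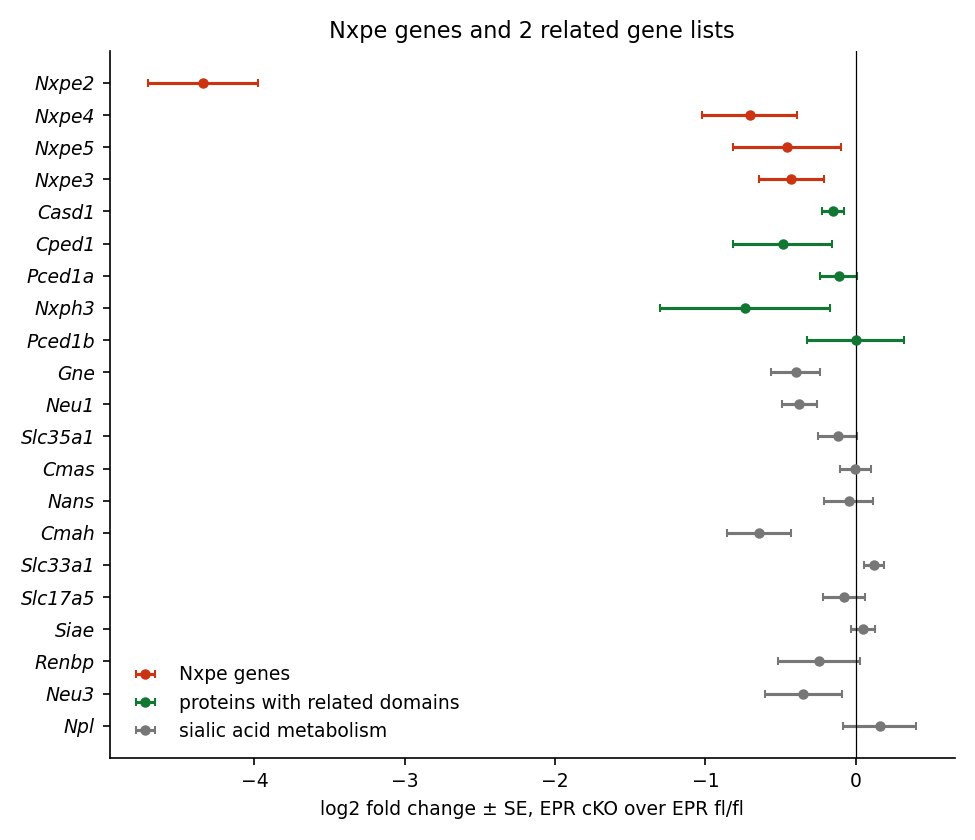
Log2 fold change (EPR cKO over EPR fl/fl) with SE for the 4 Nxpe genes (red), the tested genes with related domains (green) and the tested genes of sialic acid metabolism (grey; Casd1 is in both lists and drawn once). Nxpe2 lies at −4.34, and the other genes lie between −0.74 and 0.16. Sialyltransferases were not part of the lists.

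Genes whose levels followed each member most closely were ranked by Pearson's r of log2 CPM over the 12 libraries, a description in which the difference between genotypes contributes. Each list here and below holds the 5 highest r among all tested genes other than the members. High r can arise by chance among so many genes, and this was not tested. For Nxpe2 they were Klhdc8a (r = 0.988), Hapln4 (0.981), 1810010D01Rik (0.976), St6gal1 (0.973) and Ccl6 (0.971). All 5 were called lower in EPR cKO by edgeR. Klhdc8a, a kelch-domain gene, went from 10.9 ± 1.78 to 3.87 ± 0.576 CPM, and Hapln4, a hyaluronan and proteoglycan link protein, from 1.497 ± 0.456 to 0.159 ± 0.105 CPM. 1810010D01Rik went from 5.42 ± 1.68 to 0.590 ± 0.175 CPM. St6gal1, a sialyltransferase that caps N-glycans, went from 66.5 ± 5.96 to 21.96 ± 2.42 CPM, and the chemokine Ccl6 from 208 ± 49.7 to 35.7 ± 6.85 CPM.

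With the group means taken out, the genes closest to Nxpe2 were Gm48138 (r = 0.887), Sema5a (0.884), Arhgap32 (0.877), Map3k1 (0.860) and Wfdc2 (0.853), with 12 libraries each. The Nxpe2 values of the EPR cKO libraries rest on 14 to 77 counts each. Of these, Wfdc2, a secreted whey acidic protein family member, was called lower, from 16.2 ± 3.54 to 6.39 ± 2.25 CPM. Gm48138, Sema5a, Arhgap32 and Map3k1 were not called, with log2 fold changes of −0.16, −0.08, 0.24 and −0.06.

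For Nxpe4 the closest genes over the 12 libraries were Scnn1a (r = 0.904), a subunit of the epithelial sodium channel, Spsb4 (0.877), Wtip (0.875), Msantd1 (0.866) and Npas2 (0.853), of which Spsb4 was called lower (log2 fold change −1.18, SE 0.27). Scnn1a and Msantd1 were again among the 5 closest to Nxpe4 after the group means were taken out (0.856 and 0.894), with Tpbg (0.906), Orai1 (0.884) and Gm49326 (0.858).

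For Nxpe5 the list held Serpinb6b (0.906), Themis2 (0.898), Gpsm3 (0.897), the chemokine receptor Ccr2 (0.896) and the interferon-inducible Gbp5 (0.893), and 0 of these 5 were called. After the group means were taken out it held Ifi204 (0.933), Gnas (0.923), Tyrobp (0.900), Gbp5 (0.897) and Serpinb6b (0.896). For Nxpe3 the closest were Cysltr2 (0.876), Agap2 (0.857), P2rx7 (0.838), Fyb (0.834) and Retnlb (0.833), also with 0 called, and after the group means were taken out Mier1 (0.912), Cysltr2 (0.866), Gm13341 (0.839), AC124512.1 (0.836) and Fyb (0.832).

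Within genotypes the members were compared with each other, with EPR in controls and with marker lists, in 48 relations of 6 libraries each. The lists were epithelium, goblet, smooth muscle and immune, each as the mean log2 CPM of its tested markers. An adjusted p under 0.05 was reached by 0 of the 48, while 5 of 26 relations in controls and 1 of 22 in EPR cKO had an unadjusted p under 0.05. The Nxpe2 counts used here also entered the comparison by which Nxpe2 was chosen, so p-values of relations with Nxpe2 are descriptive. The relation with the smallest p was between Nxpe2 and Nxpe5 in controls, with a Pearson r of −0.950 (exact permutation p = 0.00139, adjusted 0.0667) and a Spearman rho of −1 (exact permutation p = 0.00278, adjusted 0.133), and r was −0.839 without the 2 libraries farthest from the median of Nxpe2. In EPR cKO the same pair had an r of 0.14 (exact permutation p = 0.801).

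Depth moved with this relation. The 3 control libraries with over 20000000 counts, replicates 2, 3 and 4, held 36.4 ± 6.78 CPM of Nxpe2 and 1.89 ± 0.812 CPM of Nxpe5, and the 3 with fewer held 21.4 ± 1.58 and 3.87 ± 1.15 CPM. Sets of 3 are too few for a test within each depth. In controls the immune marker mean had an r of −0.874 with Nxpe2 (exact permutation p = 0.0194, adjusted 0.3). With Nxpe5 its r was 0.88 (exact permutation p = 0.0292, adjusted 0.3), and 10 of 11 immune markers passed the filter. The epithelium marker mean had an r of −0.759 with Nxpe2 (exact permutation p = 0.0861, adjusted 0.459) and 0.826 with Nxpe5 (exact permutation p = 0.0347, adjusted 0.3). The smooth muscle mean went the same way (−0.652 and 0.495), and the goblet mean the other way (0.246 and −0.321). The part of depth, of immune cells and of the other cell types in the relation was not tested.

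**Figure D5:**
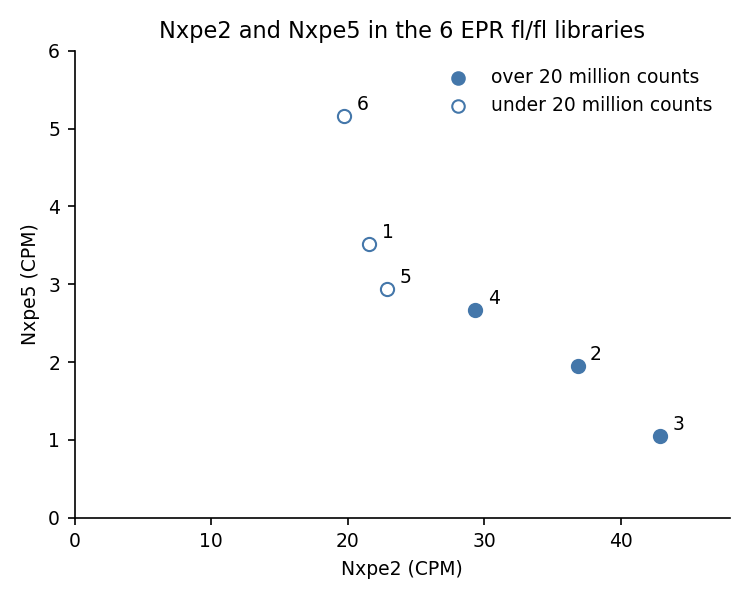
Nxpe5 against Nxpe2 in the 6 EPR fl/fl libraries, in CPM, with replicate numbers beside the points. Filled points are libraries with over 20000000 counts and open points those with fewer, and Nxpe5 goes from 5.16 to 1.05 CPM as Nxpe2 goes from 19.7 to 42.9 CPM.

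Among control animals the level of Nxpe2 did not follow that of EPR in a detectable way, with an r of −0.268 (exact permutation p = 0.561, adjusted 0.826). For Nxpe4 and EPR r was −0.904 (exact permutation p = 0.0236, adjusted 0.3) and −0.809 without the 2 libraries farthest from the median of Nxpe4, with a rho of −0.771 (exact permutation p = 0.103, adjusted 0.502), so the relation failed the correction for 48 relations.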

How the data were processed

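RNA-Seq counts from 12 mice were used, 6 per genotype. The authors made stranded total RNA libraries depleted of ribosomal RNA, aligned the reads to mm10 with STAR 2.5.3a (version from the submitters' processing notes) and counted them per gene with featureCounts. The values deposited by the authors are raw counts per gene. Strand and multi-mapping settings of the counting were not given in the sources used here, so reads of overlapping or near-identical genes are uncertain. All 12 count columns were matched to samples by name.

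Genes with at least 1 CPM in at least 4 libraries were tested in R 4.3.3 with edgeR 4.0.16 (TMM scaling, quasi-likelihood F test, no covariate), with Benjamini-Hochberg adjustment over 15952 genes. The tests were first tested on simulated data. The SE was the absolute log2 fold change divided by the square root of F. Single-library log2 values used a prior count of 2. P-values from edgeR set the difference between genotypes against the spread between animals. Permutation p-values set a difference or an r against its values over all sign flips or orders of the libraries. Alternatives were DESeq2 1.42.0, limma-voom (limma 3.58.1), other scalings and filters, a replicate block and leaving out each library. The split by depth at 20000000 counts was added after the data were seen.

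Named genes were the members, EPR, nearest tested neighbours, called genes of the 2 lists or else the 4 with the highest levels, and the 5 genes closest to each member by correlation. Other genes are named as chosen after their values were seen. The members and lists were chosen with earlier results of these data known. Replicate numbers were checked for pairing of the groups: the deviations of same-numbered libraries from their group means correlated at over 0.1 for 2 of the 6 numbers, and the numbers were not treated as pairs. Coordinates are mm10, with annotation from GENCODE M21 and upstream sequence from RefSeq, which matched 4 of 4 members.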

Additional observations from a re-analysis of the deposited data

Results flagged for a closer look

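In 2 of the 8 sets of 6 CPM values (4 members in each genotype, without log transformation), 1 library stood farther from the rest than Dixon's 95% limit for 6 samples allows. For normally distributed values chance gives about 1 in 20 sets, or 0.4 of 8. Low counts need not be so distributed, and the limit was not applied to log2 values, so an excess over chance is not shown. Nxpe2 in EPR cKO 2 was at 3.26 CPM, against 0.745 to 1.40 CPM in the other 5 EPR cKO libraries. EPR itself was also highest there among the EPR cKO libraries, at 0.424 CPM (10 counts), against 0 to 0.134 CPM in the other 5. A relation between these EPR and Nxpe2 values was not tested. Nxpe4 in EPR cKO 3 was at 4.96 CPM, against 1.25 to 2.48 CPM in the others. The 2 flagged values, of Nxpe2 and of Nxpe4, were in different libraries.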

How the results depend on the processing

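Over 22 alternatives the log2 fold change of Nxpe2, a description since it chose the family, went from −4.79 (without EPR cKO 2) to −4.20 (without EPR fl/fl 3). Nxpe3, Nxpe4 and Nxpe5 kept their direction and were called under none of the 22. Genes called lower numbered 251, and 473 with DESeq2, and genes called higher 141, and 39 on total counts without TMM, 54 with no low-count filter and 440 with DESeq2. Leaving out 1 library gave 145 (EPR fl/fl 4) to 2273 (EPR cKO 1) lower and 28 (EPR cKO 3) to 1178 (EPR cKO 1) higher genes, and the lower count was also 153 without EPR fl/fl 3 and 156 without EPR cKO 3. Leaving out 1 library gave 0 to 3 called neighbours on chromosome 9, 0 to 3 sialic acid genes and 0 to 1 domain relatives, and DESeq2 called 1 sialic acid gene. The cause of these shifts was not tested. With the replicate block 178 genes were lower and 67 higher, and Nxpe2 was at −4.45. Same-numbered libraries correlated at −0.242 to 0.34, over 0.1 for numbers 4 and 6, and only 1 and 6 matched best with their own number, so the numbers were not taken as pairs. The difference of Nxpe4 over Nxpe5 in controls reversed to −0.018 without a prior. Low counts of Nxpe3, Nxpe4 and Nxpe5 limit what could be detected.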
